A study of Mus musculus with 45 samples.

Results

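The 29 genes described here encode the enzymes and regulators with which a mouse cell makes cholesterol and fatty acids, and their RNA was followed while fibroblasts were turned into muscle cells or muscle progenitors. The genes were chosen by name from the pathway, with earlier results of these data known. All 29 were found by symbol among the 35675 genes of the deposited tables, and all 29 were among the 17325 genes with enough reads to be tested. The sterol arm holds 21 of them (Hmgcs1, Mvk, Pmvk, Mvd, Idi1, Fdps, Fdft1, Sqle, Lss, Cyp51, Tm7sf2, Msmo1, Nsdhl, Hsd17b7, Ebp, Sc5d, Dhcr7, Srebf2, Insig1, Stard4 and Acat2). The fatty acid arm holds the other 8 (Srebf1, Fasn, Acaca, Acly, Scd1, Scd2, Elovl6 and Me1).

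The study profiled 45 bulk RNA-seq libraries in 15 groups of 3, and every library came from cells of the genotype Tg:Pax7-nGFP on a C57BL6;DBA2 background, which carry a green fluorescent reporter for the muscle stem cell factor Pax7. Mouse embryonic fibroblasts (MEFs) were untreated, or received doxycycline to switch on MyoD, the master regulator of muscle, for 2, 4, 6, 8 or 10 days, either alone or together with the small molecules abbreviated F/R/C. F/R/C is used in published work on these cells for forskolin, RepSox and a CHIR inhibitor of GSK3. MyoD alone was set up to give myotubes, and MyoD with F/R/C to give induced myogenic progenitor cells (iMPCs). The remaining 4 groups were bulk iMPCs, established as clones and kept in F/R/C medium without doxycycline after 13 days of doxycycline with F/R/C, primary myoblasts in bulk, and the Pax7-GFP+ cells sorted from iMPCs and from myoblasts. The labels do not say that the 3 libraries of a group came from separate cultures or animals, so p-values measure only the spread between these libraries.

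Cholesterol is built from acetyl-CoA through mevalonate, squalene and lanosterol, and fatty acids are built from the same acetyl-CoA after carboxylation to malonyl-CoA. Both branches are switched on by the SREBP transcription factors, encoded by Srebf2 (mainly the sterol branch) and Srebf1 (mainly the fatty acid branch). Insig1 holds the SREBP precursors in the endoplasmic reticulum when sterols are plentiful, so cells respond to the lipid content of their medium as well as to their own demand for membrane.

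SREBPs are known to act at promoters together with NF-Y and Sp1, so the sequences just before 5 members whose RNA behaved differently are shown. The windows come from the RefSeq promoter table on build GRCm38.p6, are written 5′ to 3′ on the gene's strand, and end before the first base annotated for the gene in GENCODE M21. Capitals mark matches on either strand to TCACNCCAC (a sterol response element core), CCAAT (NF-Y), GGGCGG (Sp1) or CACGTG (an E-box). The windows are chr13:119690101-119690350 for Hmgcs1, chr5:114444019-114444268 for Mvk, chr5:28071162-28071362 for Insig1 and chr3:129532136-129532354 for Elovl6, all on the plus strand, and chr9:86695954-86696164 on the minus strand for Me1.
Hmgcs1: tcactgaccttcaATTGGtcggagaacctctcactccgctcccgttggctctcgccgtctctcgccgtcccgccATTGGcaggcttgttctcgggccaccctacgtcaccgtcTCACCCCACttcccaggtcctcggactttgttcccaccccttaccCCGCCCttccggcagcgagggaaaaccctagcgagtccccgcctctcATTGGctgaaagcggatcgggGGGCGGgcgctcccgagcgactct
Mvk: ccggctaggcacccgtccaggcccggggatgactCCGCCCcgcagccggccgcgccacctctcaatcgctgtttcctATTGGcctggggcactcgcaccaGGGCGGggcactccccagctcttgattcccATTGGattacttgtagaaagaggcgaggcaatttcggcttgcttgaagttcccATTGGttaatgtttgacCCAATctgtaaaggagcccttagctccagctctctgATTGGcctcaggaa
Insig1: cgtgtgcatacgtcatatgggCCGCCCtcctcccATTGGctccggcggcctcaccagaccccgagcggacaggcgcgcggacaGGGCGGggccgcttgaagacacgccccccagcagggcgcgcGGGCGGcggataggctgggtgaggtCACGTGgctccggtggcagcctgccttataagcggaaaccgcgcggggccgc
Elovl6: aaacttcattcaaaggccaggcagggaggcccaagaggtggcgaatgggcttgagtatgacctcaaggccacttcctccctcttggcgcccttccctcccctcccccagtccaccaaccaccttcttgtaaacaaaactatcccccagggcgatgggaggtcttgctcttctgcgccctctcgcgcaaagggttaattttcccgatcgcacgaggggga
Me1: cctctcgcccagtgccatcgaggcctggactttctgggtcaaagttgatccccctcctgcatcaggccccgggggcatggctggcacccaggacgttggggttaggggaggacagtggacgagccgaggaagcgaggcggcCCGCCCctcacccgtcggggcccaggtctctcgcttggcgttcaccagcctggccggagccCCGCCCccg
Hmgcs1, the synthase at the entry to the mevalonate route, had 1 match to the sterol response element core, 3 to CCAAT and 2 to GGGCGG. Mvk, mevalonate kinase, had 5 CCAAT and 2 GGGCGG matches, and Insig1 had 1 CCAAT, 3 GGGCGG and 1 CACGTG. Elovl6, the elongase of palmitate, had none of these letters in its window, and Me1, the cytosolic malic enzyme that supplies NADPH, had 2 GGGCGG here and CCAAT only in another of its windows, which is not printed. In all, 23 of the 29 members had an entry, with 29 windows among 32851. Sqle, Scd1, Fdft1, Fdps, Stard4 and Scd2 are named only. Over the 250 bases before the start, CCAAT was present in 68.97% of member windows beside 33.85% of all windows, GGGCGG in 72.41% beside 32.74%, CACGTG in 13.79% beside 6.021%, and TCACNCCAC in 3.448% (1 window) beside 1.053%. A match is a description of letters and not evidence of a bound site.

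Each library held between 15.6 and 36.3 M reads (median 22.1 M), and the fewest reads of any member in a library was 46, for Tm7sf2. CPM values, reads of a gene per 1e6 reads, are scaled by library size with the TMM method and compare a gene between libraries. TPM, which is scaled to transcript length, is used where genes are compared with each other. The cells carried the markers of their labels: the summed level of 12 fibroblast markers was 20190 to 25300 CPM in MEFs, and Pax7 was at most 0.0465 CPM in MEFs, 263 to 351 CPM in sorted iMPCs and 349 to 813 CPM in sorted myoblasts. Pax7 was 401 to 639 CPM in bulk myoblasts, which overlaps the sorted ones. The 3 bulk myoblast libraries differed from each other, with 12 muscle differentiation markers summing to 33390, 19270 and 1165 CPM. Sorted libraries were quantified with another fragment length setting (an offset of 180.0 bases against 152.8), so sorting and that setting cannot be told apart. Culture media differed between the cultures and their lipid content is not given in the sources used here, so medium and group cannot be told apart in any comparison below. In bulk samples, fewer cells of a type and less RNA per cell cannot be told apart either.

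The sterol arm was high in MEFs, low soon after MyoD was switched on, and high again late in the F/R/C arm and in sorted iMPCs. Summed over its 21 genes, the deposited TPM was 937 ± 35.2 (SD, n = 3) in MEFs, 488 ± 60.3 on day 2 of MyoD alone and 538 ± 84.0 on day 2 with F/R/C. On day 10 it was 613 ± 52.7 with MyoD alone and 1024 ± 78.3 with F/R/C. It was 961 ± 295 in sorted iMPCs, where replicate 2 was at 622 and the other libraries at 1107 and 1155, so that group overlaps bulk iMPCs (672 ± 33.9). Myoblasts were at 530 ± 62.2 in bulk and 481 ± 135 after sorting, near the level of day 2. These sums are descriptions, since a few abundant genes weigh most in them.

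**Figure D1:**
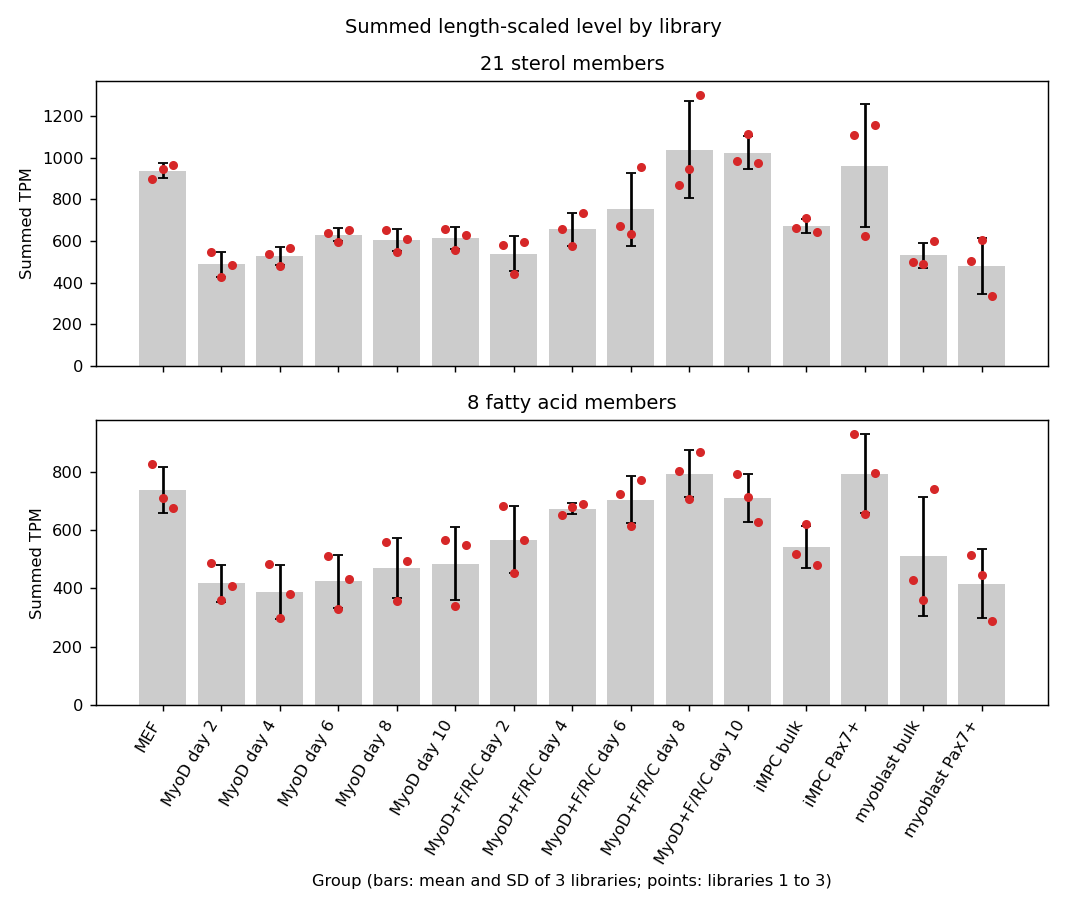
Summed TPM of the 21 sterol arm genes and of the 8 fatty acid arm genes in each group, with bars for the mean and SD of 3 libraries and 1 point per library. The sterol sum with F/R/C on day 10 (973 to 1114) lies above all 3 libraries with MyoD alone (554 to 656).

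The fatty acid arm summed to 738 ± 78.8 TPM in MEFs, 387 ± 92.3 on day 4 of MyoD alone and 673 ± 19.5 on day 4 with F/R/C. On day 8 the sums were 470 ± 104 with MyoD alone and 793 ± 80.9 with F/R/C. Scd1 and Scd2, the stearoyl-CoA desaturases, which introduce the double bond of oleate and palmitoleate, differed by more than the whole arm did. Together they were at 84.8 ± 18.2 TPM on day 4 of MyoD alone and 454 ± 55.1 TPM with F/R/C. Scd1 had the highest TPM of all 29 members on day 4 with F/R/C (291) and on day 6 (260), while Scd2 led on day 10 with F/R/C (289). Reads that fit both genes were divided between them upstream, so the split between Scd1 and Scd2 is less certain than their sum.

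The members differed in how widely they ranged over the 15 groups. Scd1 ranged most, with a highest group mean 33.4-fold its lowest, followed by Elovl6 (17.1-fold), Dhcr7 (7.21-fold), which reduces the last double bond of the cholesterol pathway, and Me1 (6.84-fold). The median was 3.12-fold for the sterol arm, with a range of 2.40 to 7.21, and 5.02-fold for the fatty acid arm, with a range of 2.16 to 33.4. Sorted iMPCs had the highest mean of any group for 10 of 21 sterol members and 4 of 8 fatty acid members. Bulk myoblasts had the lowest mean for 6 sterol members and 1 fatty acid member. The share of all genes that were highest or lowest in these groups was not computed, so these counts only describe the members.

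**Figure D2:**
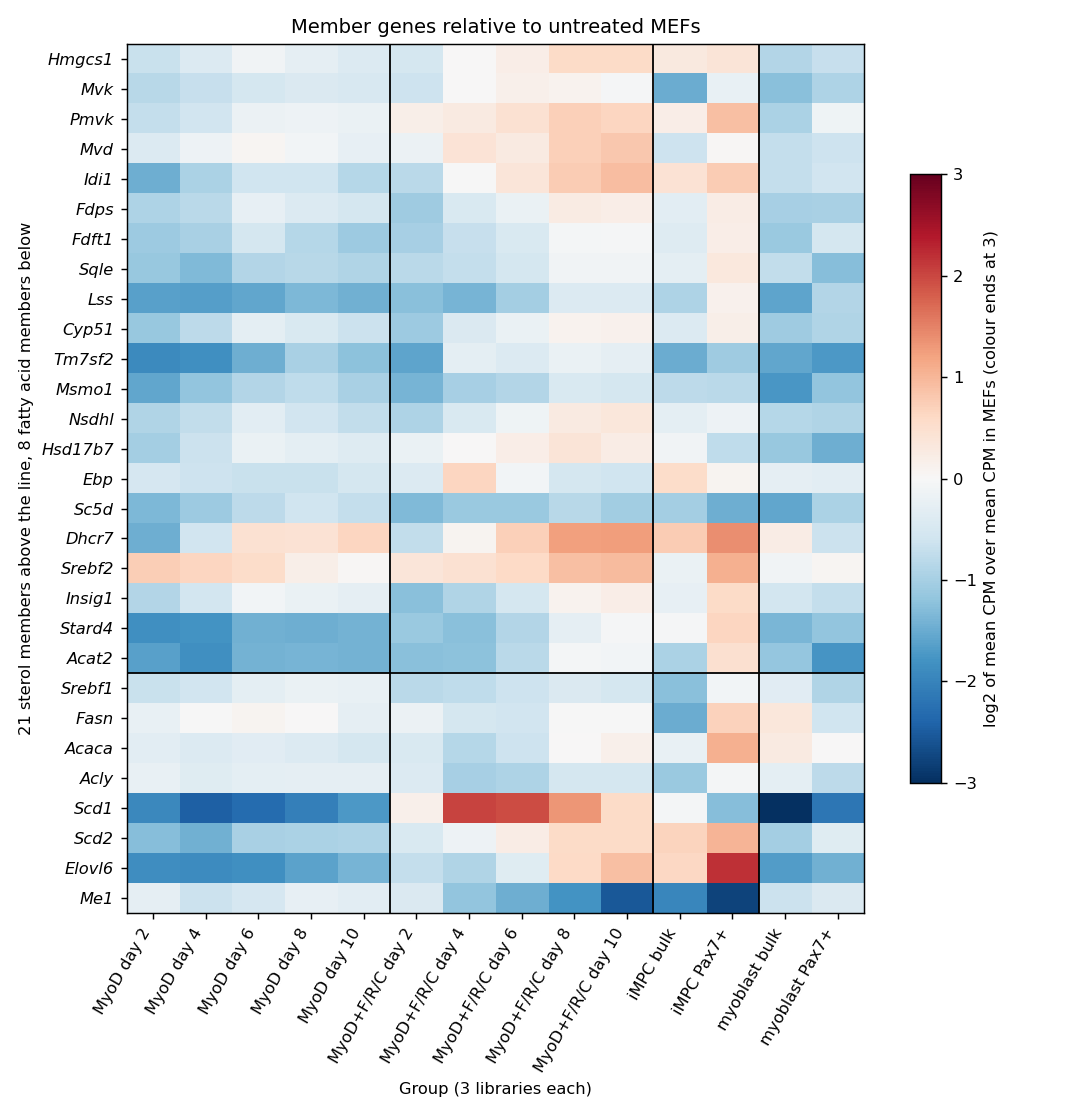
Mean CPM of each of the 29 members (lines) in each group after MEFs (columns), as the log2 ratio to its mean in untreated MEFs, with red for higher, blue for lower and the colour ending at 3. Most sterol members are blue on day 2, and Scd1 and Elovl6, which range 33.4-fold and 17.1-fold over groups, change colour most.

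On day 2 of MyoD, many sterol enzymes had less RNA than in untreated MEFs, both without and with F/R/C. A member is called here when its Benjamini-Hochberg adjusted p over all 17325 genes was under 0.05 in edgeR's quasi-likelihood test and its log2 fold change was at least 1 in size. On day 2 of MyoD alone 15 of 29 members fell and 0 rose against MEFs, beside 10.1% of all genes lower and 12.3% higher, and 12 of the 15 belong to the sterol arm. On day 2 with F/R/C 10 fell and 0 rose, all of them sterol members, beside 8.93% lower and 11.5% higher. Both comparisons use the same MEF libraries. The median log2 fold change of the 29 members was -1.03 with MyoD alone and -0.74 with F/R/C, where the median of all genes was 0.00 in each.

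Tm7sf2, a sterol reductase that acts after lanosterol, was at 16.5, 13.4 and 9.45 CPM in MEFs and at 4.53, 2.64 and 3.28 CPM on day 2 of MyoD alone. Every library on day 2 lay below every MEF library, and Tm7sf2 fell by 1.91 ± 0.32 (SE) on the log2 scale (adjusted p = 2.46e-05). Lss, the cyclase that forms lanosterol, was at 48.1, 56.0 and 51.8 CPM in MEFs, at 19.7, 15.5 and 15.2 CPM with MyoD alone and at 22.4, 18.1 and 24.6 CPM with F/R/C. Lss fell in both arms, by 1.63 ± 0.27 (adjusted p = 1.74e-05) and by 1.26 ± 0.27 (adjusted p = 0.000428). Stard4, a cytosolic carrier of cholesterol, was at 42.1, 34.5 and 29.2 CPM in MEFs and at 11.4, 7.05 and 10.9 CPM with MyoD alone, and fell by 1.85 ± 0.34 (adjusted p = 7.84e-05). Among the others, Acat2, Msmo1, Idi1, Dhcr7, Sc5d, Sqle, Cyp51, Fdft1 and Hsd17b7 fell by 1.03 to 1.62 with MyoD alone. Sqle, squalene epoxidase and a flux-setting step, was at 65.8, 59.4 and 64.9 CPM in MEFs and at 34.7, 25.5 and 26.0 CPM, a fall of 1.14 ± 0.24 (adjusted p = 0.000369).

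The regulator Srebf2 was not lower on day 2 of MyoD alone. It was at 189, 190 and 132 CPM in MEFs and at 253, 302 and 297 CPM on day 2 of MyoD alone. Srebf2 was the 1 member whose day 2 libraries all lay above the MEFs in that comparison, while 25 members lay wholly below. Of all tested genes, 27.99% lay wholly above and 24.4% wholly below. The log2 difference of Srebf2, 0.74 ± 0.20 (adjusted p = 0.00419), stayed under the fold limit. Srebf1 was not called, but all its day 2 libraries lay below the MEFs, both with MyoD alone and with F/R/C. Insig1 fell with F/R/C by 1.26 ± 0.28 (adjusted p = 0.000652), and its log2 difference with MyoD alone was -0.88 ± 0.27 (adjusted p = 0.0126). In the fatty acid arm, Scd1, Elovl6 and Scd2 fell with MyoD alone by 1.92 ± 0.41 (adjusted p = 0.000434), 1.87 ± 0.48 (adjusted p = 0.00288) and 1.28 ± 0.26 (adjusted p = 0.000257). Scd1 in MEFs was uneven, with 297 CPM in replicate 1 and 124 and 148 CPM in the other libraries. Leaving out replicate 2 of day 2 with F/R/C brought the count of falls in that arm from 10 to 5.

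On day 10 the arms stood apart from MEFs in different ways. With MyoD alone 7 members fell and 0 rose, beside 4.64% of all genes lower and 14.3% higher. They were Lss, Acat2, Stard4, Tm7sf2 and Fdft1 in the sterol arm, with falls of 1.10 to 1.43, and Scd1 (1.72 ± 0.41, adjusted p = 0.00172) and Elovl6 (1.38 ± 0.47, adjusted p = 0.0261). The Elovl6 call was lost in 4 alternative fits. With F/R/C 1 member rose and 2 fell, beside 19.0% higher and 15.8% lower (5 called without MEF replicate 1 or F/R/C replicate 3). Dhcr7 rose by 1.24 ± 0.30 (adjusted p = 0.000856), from 25.0, 22.6 and 20.5 CPM in MEFs to 42.5, 55.2 and 63.5 CPM. Me1 fell by 2.54 ± 0.40 (adjusted p = 4.43e-06) and Sc5d, a sterol desaturase, by 1.03 ± 0.29 (adjusted p = 0.00306), the latter call being lost in 8 alternative fits. The median log2 fold change of the members was -0.54 with MyoD alone and 0.13 with F/R/C, beside 0.01 and 0.08 over all genes. The differentiation markers, at 55.1 to 174 CPM in MEFs and at least 10250 CPM in both arms, moved with all 4 comparisons to MEFs, and their part was not tested. Fibroblast markers moved with them as well: of 12, 6 and 3 fell on day 2 with MyoD alone and with F/R/C, 4 and 7 on day 10, and 0 rose. Of 11 muscle progenitor markers, 6 and 5 rose on day 2 and 4 and 8 on day 10. In the same list 1 fell on day 2 with MyoD alone and 1 fell on day 10 with F/R/C. The part of these markers was not tested either.

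Comparing the arms directly asks what F/R/C adds to MyoD on each day. On day 2 only Scd1 was called: 1 member rose and 0 fell, beside 2.13% of all genes higher and 2.80% lower (3 members without replicate 1 of MyoD alone, 2 without replicate 2 with F/R/C). Pmvk (0.90, adjusted p = 0.00475), Hsd17b7 (0.83, adjusted p = 0.0306) and Scd2 also passed the adjusted p on day 2 but stayed under the fold limit. On day 4, 4 rose and 0 fell (background 6.58% and 6.66%), and on day 6, 4 rose and 0 fell (background 8.23% and 7.14%; 1 member without replicate 3 with F/R/C). On day 8, 6 rose and 1 fell (9.20% and 9.46%; 13 members without replicate 1 with F/R/C), and on day 10, 10 rose and 1 fell (9.91% and 13.4%). Averaged over the 5 days, 4 rose and 1 fell, beside 11.6% and 10.5%. The comparisons on different days use separate libraries, while the average uses all of them and treats them as independent. Same-numbered libraries of the day 2 and day 10 groups of both arms deviated together to some degree (mean correlation 0.242, from 0.01 to 0.433). The SE and adjusted p of an average over days rest on that assumption of independence.

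Scd1 was at 55.4, 51.8 and 42.6 CPM on day 2 of MyoD alone and at 242, 206 and 187 CPM with F/R/C. On day 4 it was at 37.6, 31.3 and 34.9 CPM with MyoD alone and at 575, 993 and 732 CPM with F/R/C. The groups did not overlap on any of the 5 days, and the largest difference was on day 4. Scd1 was higher with F/R/C by a log2 fold change of 2.08 ± 0.41 (adjusted p = 0.00135) on day 2, 4.47 ± 0.46 (adjusted p = 2.63e-08) on day 4, 4.27 ± 0.45 (adjusted p = 8.9e-08) on day 6, 3.37 ± 0.43 (adjusted p = 1.9e-06) on day 8 and 2.29 ± 0.41 (adjusted p = 7.25e-05) on day 10. Averaged over days Scd1 rose by 3.30 ± 0.19 (adjusted p = 4.63e-15). The level with F/R/C on day 10 (275, 218 and 351 CPM) overlapped that of MEFs.

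Scd2 was at 269, 171 and 263 CPM on day 4 of MyoD alone and at 570, 551 and 611 CPM with F/R/C, and it too was above on all 5 days. Scd2 rose on days 4, 6, 8 and 10, with log2 fold changes of 1.18 to 1.50, and its day 2 difference was 0.82 ± 0.26 (adjusted p = 0.043), under the fold limit. Elovl6 was first called on day 6. On day 2 it was at 15.7, 11.9 and 19.2 CPM with MyoD alone and at 32.6, 23.4 and 47.9 CPM with F/R/C, which did not overlap, and the log2 difference of 1.15 ± 0.47 missed the threshold (adjusted p = 0.135). On day 6 Elovl6 was at 18.8, 9.22 and 19.5 CPM on day 6 of MyoD alone and at 36.1, 29.9 and 65.9 CPM with F/R/C. The day 6 call of Elovl6 (1.48 ± 0.48, adjusted p = 0.0208) was lost without replicate 3 with F/R/C (adjusted p = 0.138) or without replicate 2 of MyoD alone (adjusted p = 0.105). On day 10 it was at 21.6, 8.08 and 35.7 CPM with MyoD alone and at 116, 107 and 97.4 CPM with F/R/C. The groups were well separated and Elovl6 rose by 2.29 ± 0.48 (adjusted p = 0.000403).

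Me1 went the other way. It was at 171, 131 and 121 CPM on day 2 of MyoD alone and at 146, 120 and 112 CPM with F/R/C, which overlap. On day 10 it was at 166, 104 and 134 CPM with MyoD alone and at 39.0, 20.0 and 27.9 CPM with F/R/C. Me1 fell by 1.54 ± 0.39 on day 8 (adjusted p = 0.00298) and by 2.22 ± 0.40 on day 10 (adjusted p = 6.8e-05). It was lower with F/R/C in 15 of 15 same-numbered pairs of libraries. These pairs repeat the same replicate numbers over the days, and the share of all tested genes with such a count was not computed. The average of Me1 over the days, a fall of 1.08 ± 0.17 (adjusted p = 2.33e-06), was close to the fold limit and dropped under it in 6 alternative fits.

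The other fatty acid genes differed less between the arms. Fasn, fatty acid synthase, was at 257, 171 and 251 CPM on day 10 of MyoD alone and at 310.4, 310.5 and 193 CPM with F/R/C, a log2 difference of 0.26 (adjusted p = 0.511). On days 4 and 6 all 3 F/R/C libraries of Fasn lay below those of MyoD alone, with differences of -0.51 (adjusted p = 0.225) and -0.67 (adjusted p = 0.0955). Acly, which makes cytosolic acetyl-CoA from citrate, was below MyoD alone in all 3 libraries on 3 days, with log2 differences of -0.65 ± 0.23 on days 4 (adjusted p = 0.0344) and 6 (adjusted p = 0.0318). Acaca, acetyl-CoA carboxylase, differed by 0.67 ± 0.21 on day 10 (adjusted p = 0.012), was above in all 3 libraries on days 8 and 10, and was below in all 3 on day 4 (-0.45, adjusted p = 0.125). Srebf1 overlapped between the arms on every day, and its log2 difference on day 10 was -0.30 (adjusted p = 0.419). None of Fasn, Acly, Acaca and Srebf1 was called between the arms on any day.

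**Figure D3:**
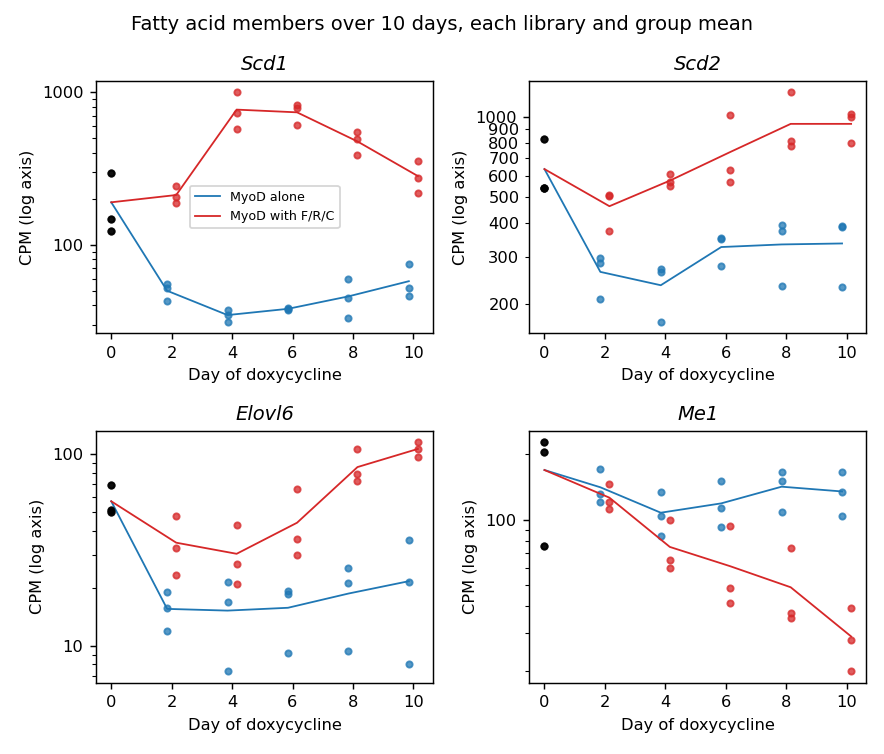
CPM of Scd1, Scd2, Elovl6 and Me1 (log axis) against day of doxycycline for MyoD alone and MyoD with F/R/C, with 1 point per library, lines through the means and untreated MEFs in black at day 0. Scd1 separates from day 2 (42.6 to 55.4 against 187 to 242 CPM), and Me1 separates late (104 to 166 against 20.0 to 39.0 CPM on day 10).

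The sterol members were followed by day in the same way. The median log2 difference of the 21 was 0.21 on day 2, 0.53 on day 4, 0.31 on day 6, 0.76 on day 8 and 0.84 on day 10, while the median over all genes lay between -0.07 and 0.00. Sterol members called higher numbered 0 on day 2, 2 on day 4, 1 on day 6, 3 on day 8 and 7 on day 10. Of the 3 on day 8, Stard4 and Acat2 were lost without replicate 3 with F/R/C. The share of all genes called also grew with the day, and the counts of different days were not tested against each other. By position, 22 of the 29 members had all 3 F/R/C libraries above all 3 libraries of MyoD alone on day 10, 1 had them below and 6 overlapped, while 21.96% of all tested genes lay wholly above and 25.9% wholly below. On day 2 the same count was 7 above, 3 below and 19 overlapping, beside 17.98% and 19.83% of all tested genes. Pmvk, Stard4, Scd1 and Scd2 were above on all 5 days, but the share of all tested genes above on all 5 days was not computed.

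Along the mevalonate steps, Idi1, the isopentenyl diphosphate isomerase, had the largest difference. On day 10 Idi1 was at 26.5, 24.1 and 24.3 CPM with MyoD alone and at 80.4, 98.7 and 78.9 CPM with F/R/C. The groups were far apart, and Idi1 rose by 1.78 ± 0.29 (adjusted p = 1.67e-05), after a rise of 1.34 ± 0.28 on day 8 (adjusted p = 0.000574). Mvd, the decarboxylase that forms isopentenyl diphosphate, rose on day 10 by 1.06 ± 0.29 (adjusted p = 0.00402). Hmgcs1 was at 81.9, 72.1 and 70.6 CPM and at 132, 160 and 154 CPM, a log2 difference of 0.99 ± 0.24 (adjusted p = 0.0015) just under the fold limit. Pmvk, phosphomevalonate kinase, differed by 0.84 ± 0.20 (adjusted p = 0.0014) and was also under the limit.

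Among the squalene and lanosterol enzymes, Fdft1, which makes squalene, rose on day 10 by 1.06 ± 0.31 (adjusted p = 0.00654) and Lss by 1.01 ± 0.26 (adjusted p = 0.00286). Lss was at 20.5, 14.96 and 22.3 CPM with MyoD alone and at 34.3, 43.6 and 38.8 CPM with F/R/C. The groups did not overlap, but without replicate 2 of MyoD alone the Lss difference was 0.97 and no longer called. Sqle was at 40.5, 27.2 and 34.1 CPM and at 58.9, 60.1 and 56.5 CPM, a log2 difference of 0.79 ± 0.24 (adjusted p = 0.00845).

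After lanosterol, Nsdhl, an X-linked sterol dehydrogenase, was at 23.8, 20.2 and 21.3 CPM on day 10 of MyoD alone and at 37.0, 53.6 and 48.2 CPM with F/R/C. Nsdhl rose by 1.09 ± 0.25 (adjusted p = 0.00108). Each of these groups held 1 library of 3 with Y-linked transcripts, as did every other group except sorted myoblasts, which held 2 of 3. Tm7sf2 and Ebp, a sterol isomerase, were instead called early, with rises of 1.55 ± 0.32 (adjusted p = 0.000609) and 1.27 ± 0.23 (adjusted p = 0.000157) on day 4. Ebp was at 12.4, 11.7 and 12.5 CPM on day 4 of MyoD alone and at 31.8, 34.1 and 22.3 CPM with F/R/C, and on day 10 its groups overlapped at 14.5, 10.6 and 13.8 against 15.5, 9.10 and 12.4 CPM.

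Of the carriers and regulators, Stard4 was at 14.99, 10.8 and 14.2 CPM on day 10 of MyoD alone and at 32.4, 37.5 and 33.9 CPM with F/R/C, and rose by 1.38 ± 0.33 (adjusted p = 0.00151). Acat2, the cytosolic acetoacetyl-CoA thiolase, was at 22.1, 12.4 and 24.1 CPM and at 46.6, 54.3 and 48.3 CPM, and rose by 1.35 ± 0.37 (adjusted p = 0.00385). On day 8 both were also called, but replicate 3 with F/R/C stood above the other libraries (43.2 against 22.4 and 22.7 CPM for Stard4). Without it the adjusted p was 0.0516 for Stard4 and 0.0525 for Acat2. Insig1 differed by 0.48 on day 10 (adjusted p = 0.162).

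**Figure D4:**
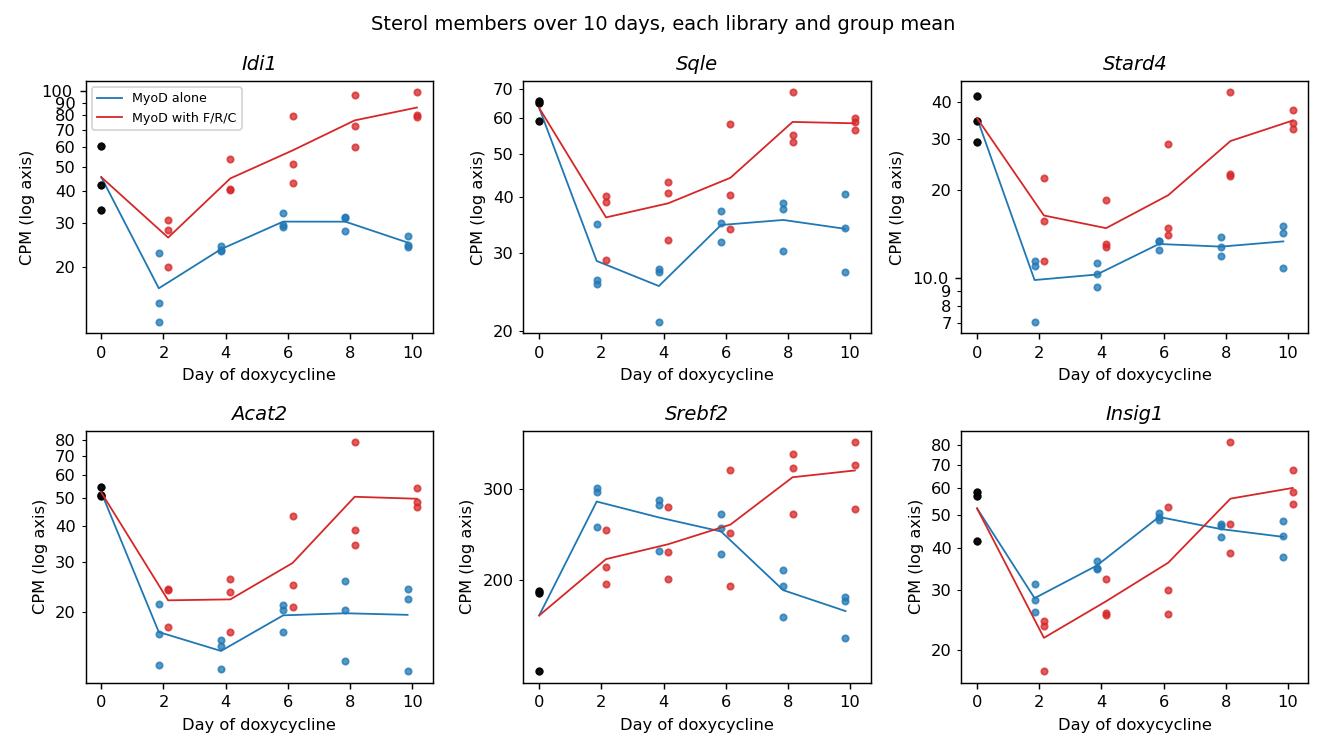
CPM of Idi1, Sqle, Stard4, Acat2, Srebf2 and Insig1 (log axis) against day of doxycycline for MyoD alone and MyoD with F/R/C, with 1 point per library, lines through the means and untreated MEFs in black at day 0. Idi1 is apart by day 10 (24.1 to 26.5 against 78.9 to 98.7 CPM), and replicate 3 with F/R/C is high on days 6 and 8.

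The change of the F/R/C effect between day 2 and day 10 was tested as an interaction: 2 members were called higher and 1 lower, beside 2.24% and 3.77% of all genes. The count was 1 without replicate 2 or 3 of MyoD alone on day 2 or replicate 2 with F/R/C on day 10, and 5 without replicate 3 with F/R/C on day 10. Srebf2 was at 253, 302 and 297 CPM on day 2 of MyoD alone and at 196, 212 and 250 CPM with F/R/C, and on day 10 at 182, 185 and 154 CPM against 335, 371 and 274 CPM. All 3 F/R/C libraries of Srebf2 lay below those of MyoD alone on day 2 and above them on day 10. The day 2 log2 difference was -0.37 ± 0.20 and missed the threshold (adjusted p = 0.269). Between the days the effects differed by 1.29 ± 0.28 (adjusted p = 0.00709). On day 10 itself the log2 difference of Srebf2 was 0.91 ± 0.20 (adjusted p = 0.000565), under the fold limit. Nsdhl changed by 1.12 ± 0.36 (adjusted p = 0.0462) and lost its call in 9 alternative fits. Me1 changed by -2.06 ± 0.54 (adjusted p = 0.0196) and lost its call in 5 fits that left out 1 library each. The median over the members was 0.64, beside -0.05 over all genes.

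Other cell features differed between the arms as well. Over days 2 to 10, 12 proliferation markers summed to 350 to 1290 CPM with F/R/C and to 60.4 to 555 CPM with MyoD alone, and 8 of 12 were called higher on day 10. The 12 fibroblast markers summed to 1447 to 7369 CPM with F/R/C and to 12630 to 33390 CPM with MyoD alone, but the markers did not move one way. On the average over days 4 of 12 rose and 3 fell, with a median log2 difference of 0.42. Fn1 and Col1a1, which are abundant, fell by 3.69 ± 0.34 and 1.72 ± 0.34, and Lum, Dcn (3.38), Pdgfra (1.41) and Prrx1 (1.02) rose. The 12 muscle differentiation markers spanned 12330 to 46090 CPM and 10250 to 45540 CPM, with 0 called on the average over days. The 10 adipocyte markers summed to 4.93 to 25.2 CPM with F/R/C and to 8.95 to 65.9 CPM with MyoD alone. Plin4 made up most of the latter on day 6, at 20.4, 57.3 and 24.4 CPM against 1.65, 1.45 and 0.199 CPM with F/R/C. Of the 7 adipocyte markers tested, 3 rose and 1 fell on days 4 and 6, and 0 rose and 1 fell on day 10. Adipoq, the adipocyte hormone adiponectin, was among those higher on days 4 and 6: with F/R/C on day 6 it was at 2.76, 0.207 and 0.249 CPM, and with MyoD alone at 0 in all 3 libraries. Plin1, the lipid droplet coat protein, was at 3.35, 0.259 and 0.199 CPM with F/R/C on day 6, so replicate 1 was the highest for both. Scd1 was at 780 CPM in that replicate, which is itself 1 of the 3 libraries that span 608 to 820 CPM. The part of these features in the lipid gene differences was not tested.

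Established bulk iMPCs had less RNA of 4 sterol members and Fasn than cells on day 10 with F/R/C. Of 29 members, 1 rose and 5 fell, beside 3.33% of all genes higher and 6.24% lower, and the median of the members was -0.48 beside 0.03 over all genes. Mvk was at 9.20, 8.32 and 7.93 CPM in bulk iMPCs, and at 21.7, 25.7 and 21.4 CPM in the cells of day 10. The groups did not overlap, and Mvk fell by 1.43 ± 0.22 (adjusted p = 4.26e-05). Mvd fell by 1.42 ± 0.29 (adjusted p = 0.000862), Tm7sf2 by 1.21 ± 0.31 (adjusted p = 0.00605) and Srebf2 by 1.13 ± 0.20 (adjusted p = 0.000169). Fasn, at 310.4, 310.5 and 193 CPM on day 10 and at 104, 92.7 and 97.1 CPM in bulk iMPCs, fell by 1.47 ± 0.31 (adjusted p = 0.000969). Ebp rose by 1.16 ± 0.23 (adjusted p = 0.000592).

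Against bulk primary myoblasts, bulk iMPCs had more RNA of the desaturases, Elovl6 and 5 sterol members, and less of Fasn and Me1. In all 8 rose and 2 fell, beside 10.9% of all genes higher and 8.70% lower. Scd1 was at 163, 241 and 139 CPM in bulk iMPCs and at 12.7, 19.3 and 37.0 CPM in bulk myoblasts. It rose by 2.97 ± 0.43 (adjusted p = 4.63e-06), with no overlap. Elovl6 was at 89.1, 81.0 and 92.5 CPM against 7.45, 14.4 and 31.8 CPM and rose by 2.29 ± 0.48 (adjusted p = 0.000515), and Scd2 rose by 1.68 ± 0.26 (adjusted p = 1.36e-05). The minor transcripts Scd1-202, Scd1-203 and Scd2-202 were estimated at 0 reads in all 3 bulk iMPC libraries, and in bulk myoblasts they held at most 1.21%, 5.34% and 5.81% of their gene's reads. Stard4, Hmgcs1, Idi1, Pmvk and Hsd17b7 rose by 1.05 to 1.34. Me1 fell by 1.32 ± 0.39 (adjusted p = 0.00871), a call lost without replicate 3 of bulk iMPCs.

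Fasn was at 271, 137 and 622 CPM in bulk myoblasts, the last in the library with the fewest differentiation transcripts. It fell in bulk iMPCs by 1.81 ± 0.31 (adjusted p = 4.47e-05), and in a fit of only the groups compared the adjusted p was 0.0773. In the same fit the calls of Stard4 (adjusted p = 0.057) and Hsd17b7 (adjusted p = 0.0555) were lost too. The differentiation markers summed to 22480 to 29270 CPM in bulk iMPCs, within the wide range of bulk myoblasts. Of 12 fibroblast markers, 11 rose in bulk iMPCs over bulk myoblasts and Fn1 fell by 2.13. The part of either list was not tested. Bulk iMPC libraries were the deepest, at 33.2 to 36.3 M reads.

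The sorted Pax7-GFP+ cells were compared with each other next. Of 29 members 15 rose in iMPCs over myoblasts and 1 fell, beside 12.4% of all genes higher and 17.6% lower, and the 15 comprise 11 sterol and 4 fatty acid members. The median log2 fold change was 1.01 over the members and -0.07 over all genes. By position 17 members had all iMPC libraries above all myoblast libraries, 2 had them below and 10 overlapped, beside 22.93% of all tested genes wholly above and 24.51% wholly below. In fits that left out 1 library the count of members called ran from 11 to 22.

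Elovl6 was at 247, 276 and 259 CPM in sorted iMPCs and at 24.5, 28.7 and 10.1 CPM in sorted myoblasts, and rose by 3.62 ± 0.51 (adjusted p = 9.37e-07). Acat2 was at 84.2, 43.4 and 92.0 CPM against 20.4, 19.0 and 6.90 CPM and rose by 2.24 ± 0.38 (adjusted p = 1.21e-05). Dhcr7 was at 62.3, 37.9 and 78.0 CPM against 10.7, 16.9 and 15.6 CPM and rose by 2.04 ± 0.31 (adjusted p = 2.65e-06). None of these 3 overlapped, although iMPC replicate 2 was low for Acat2 and Dhcr7 and myoblast replicate 3 was low for Elovl6 and Acat2. Sqle, at 88.0, 52.5 and 96.3 CPM against 33.4, 29.9 and 14.7 CPM, rose by 1.60 ± 0.24 (adjusted p = 2.56e-06), and Stard4 by 1.83 ± 0.34 (adjusted p = 4.45e-05).

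Of the regulators, Srebf2 and Insig1 were also called. Srebf2 was at 422, 256 and 393 CPM in sorted iMPCs and at 175, 178 and 179 CPM in sorted myoblasts, and rose by 1.01 ± 0.20 (adjusted p = 0.00011), at the edge of the fold limit and lost in 2 alternative fits. Insig1 rose by 1.30 ± 0.28 (adjusted p = 0.000248), and Srebf1 differed by 0.81 ± 0.29 (adjusted p = 0.0202), under the limit. Fasn rose by 1.30 ± 0.30 (adjusted p = 0.000698), from 245, 165 and 129 CPM to 486, 396 and 448 CPM, and Acaca by 1.05 ± 0.21 (adjusted p = 0.000158). Me1 was at 39.0, 23.8 and 11.4 CPM against 152, 101 and 124 CPM and fell by 2.34 ± 0.40 (adjusted p = 1.69e-05). Scd1 overlapped, at 85.7, 33.3 and 117 CPM against 27.2, 76.5 and 21.9 CPM, and its difference of 0.91 was not called (adjusted p = 0.0599). In a fit of only these groups the calls of Hmgcs1, Idi1, Fdps and Insig1 were lost, with adjusted p from 0.0527 to 0.0659.

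Differentiation and proliferation also separated these cells. The 12 differentiation markers summed to 1414 to 1949 CPM in sorted iMPCs and to 4426 to 15560 CPM in sorted myoblasts, with 9 of 12 lower, and 6 of 12 proliferation markers and 4 of 12 fibroblast markers were higher. The 10 adipocyte markers summed to 2.47 to 4.81 CPM in sorted iMPCs and to 4.46 to 12.6 CPM in sorted myoblasts, and Cfd was at 0 in all 6 libraries. The part of differentiation and proliferation in the lipid gene differences was not tested.

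**Figure D5:**
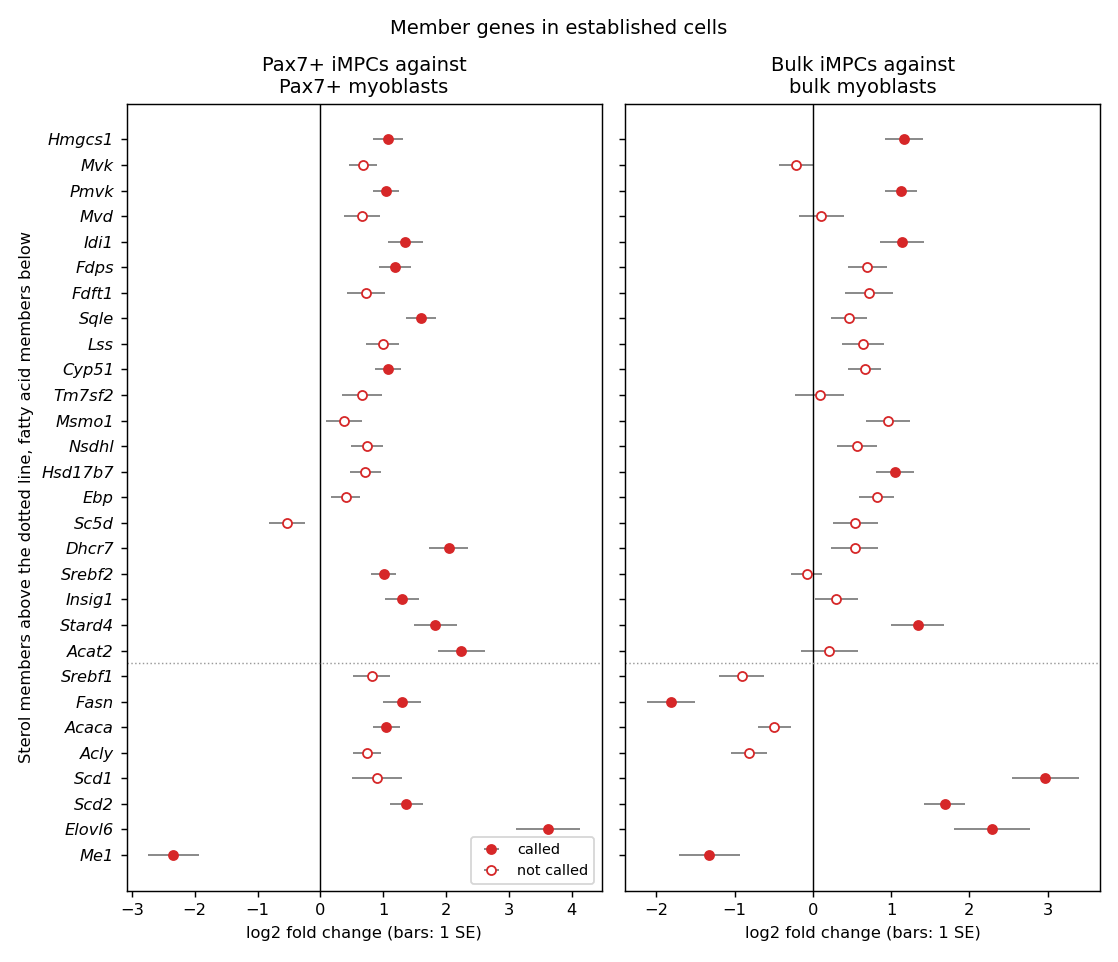
Log2 fold change of each of the 29 members between iMPCs and myoblasts, for sorted Pax7-GFP+ cells on the left and bulk cells on the right, with bars of 1 SE and filled points for members called. Elovl6 stands far to the right in both (3.62 and 2.29), Me1 to the left (-2.34 and -1.32), and Fasn changes side (1.30 in sorted, -1.81 in bulk cells).

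Sorting iMPCs for Pax7-GFP gave more RNA of the fatty acid synthesis enzymes than the bulk culture. Against bulk iMPCs 9 members rose and 1 fell, beside 9.88% of all genes higher and 20.5% lower. Fasn rose by 2.18 ± 0.31 (adjusted p = 1.7e-06), from 104, 92.7 and 97.1 CPM to 486, 396 and 448 CPM. Elovl6 (1.57 ± 0.47, adjusted p = 0.0064), Acaca (1.29 ± 0.22, adjusted p = 1.4e-05), Srebf1 (1.16 ± 0.29, adjusted p = 0.00145) and Acly (1.06 ± 0.23, adjusted p = 0.000292) rose as well. In the sterol arm Acat2, Srebf2, Mvk and Lss rose by 1.05 to 1.42. Scd1 fell by 1.20 ± 0.40 (adjusted p = 0.0137), from 163, 241 and 139 CPM to 85.7, 33.3 and 117 CPM, a call lost in 3 alternative fits. The differentiation markers summed to 1414 to 1949 CPM in sorted and 22480 to 29270 CPM in bulk iMPCs (10 of 12 lower), and 7 of 12 fibroblast markers were lower. The part of both was not tested, and the fragment length setting differed as stated above.

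No member passed the limits between sorted and bulk myoblasts. There 0 members were called higher and 0 lower in edgeR's quasi-likelihood test, beside 2.20% and 4.03% of all genes. At an unadjusted p under 0.05 there were 9 of 29 members, beside 4598 of 17325 genes. At an adjusted p under 0.05 with no fold limit there were 3 members, beside 11.9% of all genes. They were Fasn (-0.93 ± 0.30, adjusted p = 0.039), Dhcr7 (-0.89 ± 0.30, adjusted p = 0.0487) and Pmvk (0.80 ± 0.20, adjusted p = 0.00937). DESeq2 called 0 as well. Leaving out bulk replicate 3 gave 2 calls, and leaving out bulk replicate 1 or 2 or sorted replicate 1 gave 1. Whether sorted and bulk cells differed more in iMPCs than in myoblasts was not tested.

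The sterol genes varied together from library to library. Over 45 libraries, the correlation of each sterol member's log2 CPM with the mean of the other sterol members had a median of 0.81, from 0.14 for Ebp to 0.94 for Cyp51. For deviations from the group mean, which leave group differences out, the median was 0.78, from -0.12 for Ebp to 0.92 for Nsdhl. The 8 fatty acid members had medians of 0.39 and 0.46 with the same sterol mean. Me1 had -0.61 for levels and -0.14 for deviations from the group mean. These are descriptions: the genes share the scaling of each library, and the libraries of a group share their culture condition.

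Genes around the pathway were read from 3 lists of 12. Of the sterol sensing and transport genes, 1 was higher and 3 were lower with F/R/C on the average over days, beside 11.6% of all genes higher and 10.5% lower. Nr1h3, the oxysterol receptor LXR-alpha, rose by 1.90 ± 0.35 (adjusted p = 2.24e-05), and the efflux pump Abcg1 fell by 3.08 ± 0.40 (adjusted p = 8.05e-08). Lrp1, a lipoprotein receptor, fell by 1.93 ± 0.23 (adjusted p = 1.05e-08). Of the 12 genes of fatty acid supply and modification, 3 were higher and 0 lower: Acss2, which makes acetyl-CoA from acetate, rose by 2.38 ± 0.20 (adjusted p = 7.62e-12), and the desaturase Fads2 by 1.14 ± 0.29 (adjusted p = 0.00114). The third was Mlxipl, the carbohydrate response factor ChREBP, which on day 10 was at 3.30, 4.58 and 4.48 CPM with F/R/C and at most 0.0991 CPM (2 reads) with MyoD alone. Of 12 uptake and oxidation genes, 2 were higher and 0 lower, the lipase Lpl by 3.78 ± 0.30 (adjusted p = 3.14e-12) and the carnitine transferase Cpt1b by 2.87 ± 0.39 (adjusted p = 1.77e-07). In sorted iMPCs against sorted myoblasts, 3 supply and modification genes rose and 1 fell, beside the 12.4% and 17.6% given above. The desaturases Fads2 and Fads1 rose by 2.82 ± 0.69 (adjusted p = 0.00108) and 1.87 ± 0.46 (adjusted p = 0.00131), as did Mlxipl (1.69, 13.6 and 12.2 CPM against at most 0.141), and Gpam, a glycerol phosphate acyltransferase, fell by 1.76 ± 0.31 (adjusted p = 2.84e-05). In the same cells 0 sterol sensing and transport genes rose and 3 fell: Lrp1 by 1.81 ± 0.51 (adjusted p = 0.00366), Insig2 by 1.11 ± 0.25 (adjusted p = 0.000513), and Abcg1, which had at most 33 reads in any of the 6 libraries. Of the uptake and oxidation genes, Lpl rose by 2.46 ± 0.63 (adjusted p = 0.00182) and Acadvl, a mitochondrial acyl-CoA dehydrogenase, fell by 1.27 ± 0.18 (adjusted p = 1.36e-06).

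Srebf1 has several annotated transcripts, and their shares were read as a further description of that regulator. The protein-coding transcript Srebf1-201 held 43.9% to 72.2% of the gene's estimated reads in the first replicate of each group. In sorted iMPCs it was at 14.6 ± 3.39 TPM, in sorted myoblasts at 7.64 ± 2.45 TPM and in bulk iMPCs at 10.1 ± 4.81 TPM. Srebf1-203, a shorter coding transcript, was estimated at 0 reads in 1 library of day 10 with MyoD alone and at 149 and 184 reads in the others, so the division of reads between these transcripts varied between replicates.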

How the data were processed

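RNA was sequenced as single-end reads from stranded poly-A libraries, per the labels' protocols. Per the submitters' processing notes, bcl2fastq 2.19, Trimmomatic 0.36, kallisto 0.44, edgeR 3.28 and build GRCm38.p6 were used. Per the file headers, each deposited table gives estimated counts and TPM for every transcript. The deposited estimated counts carry no normalisation, and reads that fit several transcripts are divided between them. The deposited TPM values correct for transcript length and have the same total in each library.

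The transcript release is not given in the sources used here, and 121104 of 121843 transcripts matched GENCODE M21, holding 99.4% to 99.8% of each library's reads. Estimated counts were summed per gene and rounded. edgeR 4.0.16 in R 4.3.3 was used with TMM factors, filterByExpr by group and the quasi-likelihood test, in 1 model of all 45 libraries with 30 residual degrees of freedom. DESeq2 1.42.0, RLE factors, no filter, no fold limit, only the groups compared, a replicate block and leaving out each library were the alternatives. The procedure was tested on simulated data.

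The 29 members and the lists of related and marker genes were chosen with earlier results of these data known. Any member may be named, with full values for the called members of largest change, up to 5 in each direction per comparison. The regulators Srebf1, Srebf2 and Insig1 and the members Sqle, Fasn and Scd1 were planned whatever their result. They are not all given for every comparison. Groups and replicate numbers come from the sample titles. Same-numbered libraries of the arms deviated together (correlation over 0.1 in every pair) on days 2, 4 and 6, with lowest values of 0.346, 0.241 and 0.223, but not on days 8 and 10 (0.079 and 0.062).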

Additional observations from a re-analysis of the deposited data

Results flagged for a closer look

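The effect of F/R/C over MyoD alone differed between day 10 and day 2 for 3 members, by an interaction test of edgeR over all genes. For Srebf2 the log2 effect on day 10 was 1.29 above that on day 2, for Nsdhl it was 1.12 above, and for Me1 it was 2.06 below (-2.06). The adjusted p-values were 0.00709, 0.0462 and 0.0196. The Srebf2 call was kept in every alternative fit, while those of Nsdhl and Me1 were lost in 9 and in 5 of them.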

How the results depend on the processing

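Of 112 member calls over the 16 comparisons, 77 were kept in every alternative fit, 35 were lost in at least 1 and 0 reversed. Of 222 alternative counts of members called, 195 were within 1.5 times the count reported and 27 were not. With no minimum fold change, F/R/C against MyoD alone called 4 members on day 2, 8 on day 4, 8 on day 6, 19 on day 8, 19 on day 10 and 23 on average, beside 8.09%, 23.2%, 26.8%, 33.2%, 41.0% and 61.5% of all genes. Without that minimum 13 were called between day 10 of MyoD alone and MEFs, beside 29.4% of all genes, and 10 between day 10 with F/R/C and MEFs, beside 53.2%. Between bulk iMPCs and bulk myoblasts 16 were called, beside 32.9%, and between sorted and bulk myoblasts 3, beside 11.9%. With only the groups compared, 2 were called on day 2 and 5 for day 10 minus day 2.

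Leaving out 1 library at a time gave 1 to 3 members on day 2, 1 to 6 on day 6 (1 without replicate 3 with F/R/C), 5 to 13 on day 8 (13 without replicate 1 with F/R/C) and 1 to 5 for day 10 minus day 2. It gave 5 to 11 for day 2 with F/R/C against MEFs, 2 to 5 for day 10 with F/R/C against MEFs, and 0 to 2 for sorted against bulk myoblasts. The cause of these shifts was not tested. In the fit with a replicate block, the count on day 6 was 5 where it was 4, and all other counts of members were the same. Depth limits Tm7sf2 most, with 46 reads in 1 library.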
